A study of Mus musculus with 3 samples.

Results

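The 10 genes described here are ones that adipocytes, the lipid-storing cells of fat, express strongly: Adipoq, Plin1, Plin4, Cfd, Retn, Cidea, Cidec, Thrsp, Fabp4 and Car3. They were chosen by name, and their probes were found by matching the RefSeq accession on each non-control probe of the array to the gene symbol. All 10 were on the array, among 21613 named genes, with 12 probes in all, since Retn and Cidec had 2 each. Of the 10, 9 could be tested and 1, Cidec, could not. The samples were total RNA of a hindlimb muscle labelled SOL, read here as the soleus, from male C57BL/6 mice aged 8 weeks and fed a regular chow diet. The WT group was wild type, and the KO group was homozygous for a LacZ allele of Mettl21c, a gene for a protein lysine methyltransferase. Each of 3 arrays with 2 colours held 1 WT sample labelled with Cy3 and 1 KO sample labelled with Cy5, giving 3 biological replicates of each genotype. The labels do not say whether a sample came from 1 animal or a pool, and the dyes were never exchanged, so a probe's preference for one dye cannot be told apart from the genotype.

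A muscle cut out of the hindlimb carries some fat with it, both the fat on its surface and adipocytes between the fibres, which arise from fibro-adipogenic progenitors. A mature adipocyte secretes hormones and proteases, stores triglyceride in a droplet coated by perilipins and enlarged by CIDE proteins, and takes up, binds and makes fatty acids. The nuclear receptor PPARG and the C/EBP factors switch on most of these genes during adipocyte formation. Some of the 10 are not limited to fat: Fabp4 is also made by capillary endothelium, Plin4 by muscle fibres and Car3 by slow muscle fibres. In whole muscle, fewer cells of a type and less RNA per cell cannot be told apart.

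Each sample is given below by its processed signal, the scanner software's background-subtracted and dye-normalised brightness of a spot, which has no fixed unit and carries no offset. Each ratio is the log2 ratio of KO over WT on 1 array, from spot signals with an offset of 50 and a loess curve. That offset pulls the ratios of dim probes towards 0. A "log2 level" is a sample's own value on this second scale after the arrays were brought to a common distribution. Ratios were tested against 0 with limma, adjusted over 7424 genes or unnamed transcripts by the Benjamini-Hochberg method with a threshold of 0.05. Signals of different probes were not read as relative amounts of RNA, since each probe binds its target with its own strength. The summed levels of lists and the average intensities given below do put different probes together, and describe brightness only.

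Each array had 59305 spots that were not controls, of which 0 were saturated. On arrays 1 to 3, 22.8%, 23.6% and 20.4% stood well above background in WT and 22.8%, 22.5% and 22.9% in KO. Array 3 had 1002 spots with an outlier flag, against 536 and 572 on arrays 1 and 2, and 0 of the adipocyte spots had one. Mettl21c, the targeted gene, was lower in KO by a log2 ratio of -2.45 (limma adjusted p = 0.0175, SD 0.48). Its processed signals were 7527, 3677 and 4486 in WT and 200, 32.3 and 45.4 in KO. In KO it was well above background on 1 of 3 arrays, so the offset holds that ratio nearer 0 than these signals do. All 13 slow fibre markers were on the array and 10 were tested, as were 11 of 14 fast fibre markers. Detection of both cannot tell the soleus from another hindlimb muscle. Myl3, the slow myosin light chain, had log2 levels of 12.57, 12.40 and 12.99 in WT and 13.23, 12.88 and 13.32 in KO. Array 3 stood apart in both genotypes for several of the genes below, so results that rest on it are given with and without it.

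Of the 10 adipocyte genes 9 were detected in every soleus sample, and none of the 9 was shown to differ between KO and WT. Detected means well above background in all 6 samples, which Cidec was in none. Of the 9, 0 passed an adjusted p of 0.05 in limma, where 0.0404% of all genes tested did, 3 genes that were all lower in KO. At an unadjusted p under 0.05 there was 1 of 9, Car3, against 13.4% of all genes tested. The mean ratio was above 0 for 6 of 9, against 49.1% of all genes, and the median over the 9 was 0.04, against -0.0027 over all genes. The adjusted p of the 9 ran from 0.278 to 0.991. With 3 arrays, the 95% intervals of the mean ratios reached down to -0.41, for Car3, and up to 0.52, for Fabp4. These intervals hold for the scale with the offset, which narrows the ratios of dim probes. From processed signals the mean ratio was 0.32 (SD 0.75) for Adipoq, 0.35 (SD 1.26) for Retn and -0.09 (SD 0.70) for Thrsp.

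**Figure D1:**
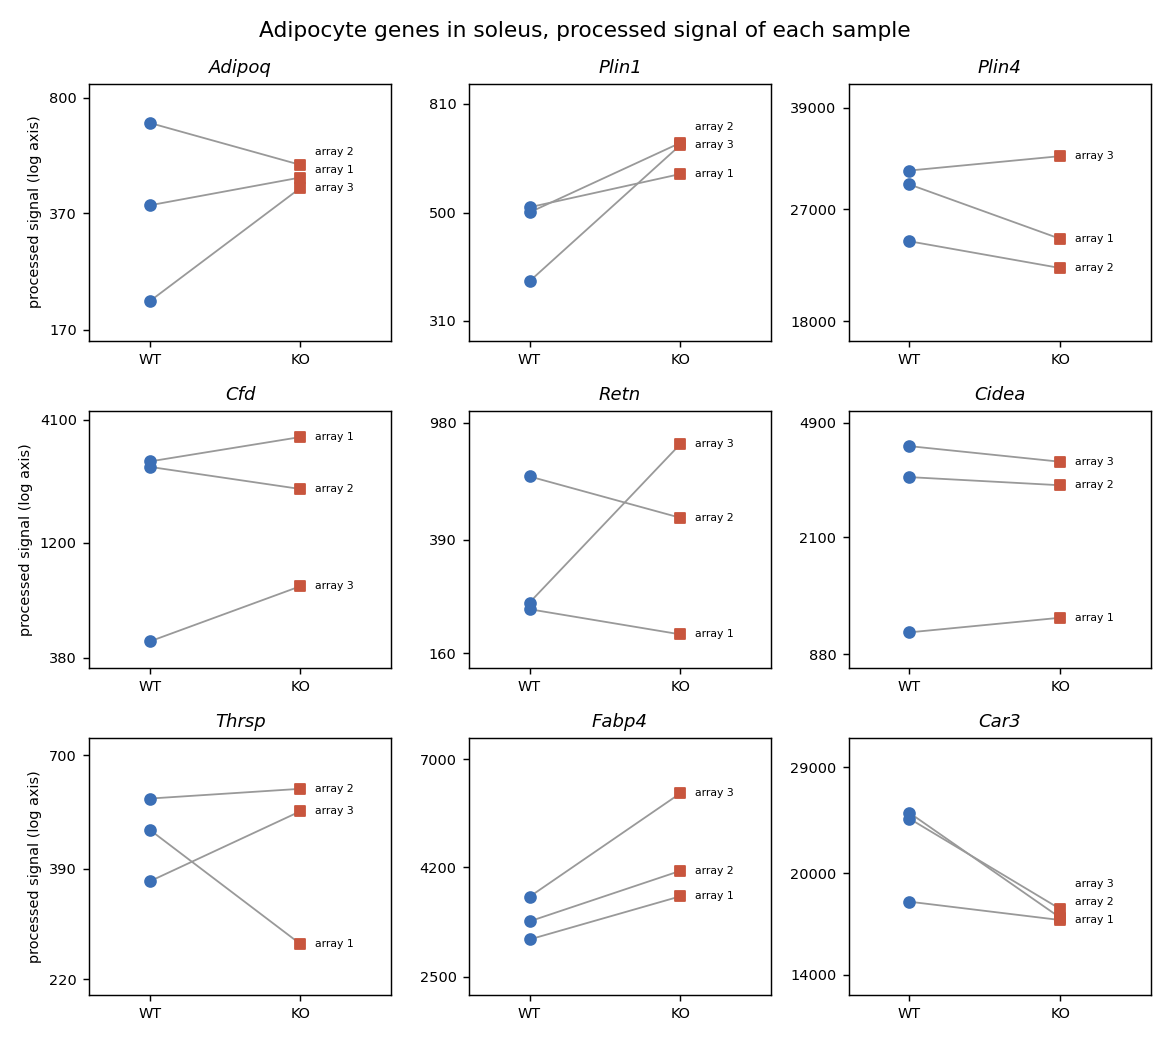
Processed signal (log axis, a separate range for each gene) of the 9 tested adipocyte genes in WT (circles) and KO (squares), with a line joining the WT and the KO sample of 1 array. The groups overlap for 6 genes, while for Plin1 and Fabp4 every KO signal lies above, and for Car3 below, every WT signal.

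The secreted proteins come first. Adiponectin, encoded by Adipoq, is a hormone that raises insulin sensitivity and is made almost only by adipocytes. The processed Adipoq signals of WT replicates 1 to 3 were 390.2, 677 and 206, and those of the KO replicates were 469.9, 511 and 438. The KO samples lay within a narrow range, 1.17-fold from lowest to highest, inside the wider 3.29-fold range of the WT samples. The log2 ratios on arrays 1 to 3 were 0.09, -0.19 and 0.29, with a mean of 0.06 (SD 0.24, 95% interval -0.18 to 0.30, limma adjusted p = 0.842). KO was higher than WT on arrays 1 and 3 and lower on array 2, and without array 3 the mean turned to -0.05.

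Cfd encodes adipsin, the complement factor D protease that adipocytes release into blood. Its processed signals were 2707, 2566 and 448 in WT and 3457, 2056 and 778 in KO. Both samples of array 3 were far below the other 4, so that the whole range was 7.72-fold while the genotypes overlapped throughout. The log2 ratios were 0.23, -0.31 and -0.04, with a mean of -0.04 (SD 0.27, 95% interval -0.29 to 0.22, limma adjusted p = 0.917). The processed signals put KO above WT on array 3, by 0.80, where the offset scale put it just below, and their mean over the arrays was 0.28 (SD 0.56).

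Resistin, encoded by Retn, is a cysteine-rich hormone of mouse adipocytes. One of its 2 probes was well above background in every sample, with processed signals of 226, 643 and 238 in WT and 185, 464 and 829 in KO. The highest KO sample, on array 3, stood beside a WT sample of array 3 that was among the lower ones. The log2 ratios were -0.04, -0.15 and 0.56, with a mean of 0.13 (SD 0.38, 95% interval -0.20 to 0.45, limma adjusted p = 0.760), and without array 3 the mean turned to -0.09. The SD of 0.38 was larger than that of 97.2% of all genes tested. The other Retn probe was not well above background in any sample, with processed signals between 24.0 and 92.3, and gives no ratio to set beside the first.

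The upstream sequences of these 3 genes of secreted proteins and of Plin1 are shown because they are known targets of the adipocyte factors named above. Each line is the 250 bases before the transcription start in RefSeq's GRCm38.p6 annotation, 5′ to 3′ on the strand of the gene. Adipoq lies at chr16:23146286-23146535 on the plus strand, Cfd at chr10:79890603-79890852 on the plus strand, Retn at chr8:3655520-3655769 on the plus strand and Plin1 at chr7:79732777-79733026 on the minus strand. Capitals mark the C/EBP motif TTGCNNAA, searched on both strands.
Adipoq: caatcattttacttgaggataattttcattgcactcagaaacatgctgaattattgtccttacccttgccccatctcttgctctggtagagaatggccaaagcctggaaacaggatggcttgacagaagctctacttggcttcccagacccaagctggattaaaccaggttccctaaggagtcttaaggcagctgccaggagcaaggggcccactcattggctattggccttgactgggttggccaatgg
Cfd: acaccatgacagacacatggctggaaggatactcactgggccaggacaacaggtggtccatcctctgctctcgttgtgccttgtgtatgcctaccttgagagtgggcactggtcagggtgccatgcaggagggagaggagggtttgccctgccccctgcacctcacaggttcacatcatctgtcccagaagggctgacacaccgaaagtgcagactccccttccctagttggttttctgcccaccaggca
Retn: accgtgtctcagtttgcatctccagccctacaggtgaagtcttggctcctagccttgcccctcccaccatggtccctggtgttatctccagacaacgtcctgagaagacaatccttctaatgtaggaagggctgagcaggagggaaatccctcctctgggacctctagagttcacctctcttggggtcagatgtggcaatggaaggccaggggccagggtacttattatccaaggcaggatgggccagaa
Plin1: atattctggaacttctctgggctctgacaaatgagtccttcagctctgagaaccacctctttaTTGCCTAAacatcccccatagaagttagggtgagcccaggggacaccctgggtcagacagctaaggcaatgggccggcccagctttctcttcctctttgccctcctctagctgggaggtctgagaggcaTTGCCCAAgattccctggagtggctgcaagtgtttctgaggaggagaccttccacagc
The Plin1 window held the motif at 187 and at 58 bases before the start, as TTGCCTAA and TTGCCCAA, and the Adipoq, Cfd and Retn windows did not hold it. Of 32851 such windows of all promoters 9.56% held it. The search covered 8 RefSeq windows of 7 of the 10 genes, the ones above with Plin4, Thrsp and Cidec, while windows of Cidea, Fabp4 and Car3 were not analysed here. Of the 8, 2 held the motif, the second being one of the Cidec windows. Of the 8, 0 held TATAAA on the gene's strand, found in 7.59% of all windows, and 0 held CACGTG, found in 6.02%. The PPARG type of element, a direct repeat of AGGTCA with 1 base between the copies, was in 0 of the 8 and in 0.0335% of all windows. A sequence that rare would be missing from 8 windows in nearly any set, so its absence says nothing about these genes. Only exact matches within the 250 bases were searched.

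Of the lipid droplet proteins, Plin1 encodes perilipin 1, which coats the adipocyte droplet and controls the access of lipases to it. Its processed signals were 512, 501 and 369 in WT and 594, 681 and 675 in KO. Every KO sample lay above every WT sample on this scale, and the log2 ratios from these signals were 0.21, 0.44 and 0.87. Of all genes tested, 6.44% had processed signals that did not overlap between the groups, and 3 of the 9 adipocyte genes did, Plin1 and Fabp4 with KO higher and Car3 with KO lower. On the offset scale the Plin1 ratios were -0.02, 0.15 and 0.39, with a mean of 0.17 (SD 0.20, 95% interval -0.05 to 0.39, limma adjusted p = 0.484), and the log2 levels of the groups overlapped. Without array 3 the mean was 0.06.

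Plin4 encodes a perilipin found in fat and in skeletal muscle. Its processed signals were 29540, 24049 and 31058 in WT and 24265, 21830 and 32720 in KO. The array 3 samples were the highest of each genotype and the array 2 samples the lowest. On arrays 1 to 3 the log2 ratios were -0.16, -0.07 and 0.35, with a mean of 0.04 (SD 0.27, 95% interval -0.22 to 0.30, limma adjusted p = 0.915). The sign of that mean rested on the scale, since the processed signals gave -0.12 (SD 0.18), and on array 3, without which it was -0.12.

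Cidea and Cidec belong to a family of droplet proteins that join small droplets into larger ones, Cidea being typical of brown and beige fat and Cidec of white fat. The processed Cidea signals were 1034, 3276 and 4124 in WT and 1153, 3084 and 3674 in KO. Both samples of array 1 were well below the other 4, a 3.99-fold range in all, while the 2 genotypes lay close together on every array. The log2 ratios were 0.16, 0.05 and -0.20, with a mean of 0.0037 (SD 0.19, 95% interval -0.21 to 0.21, limma adjusted p = 0.991). The 2 Cidec probes were not well above background in any sample, with processed signals from 23.5 to 59.7 for one and from 21.9 to 104 for the other, so no fold is given for Cidec.

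Among the genes of fatty acid handling, Thrsp encodes a nuclear protein that accompanies fatty acid synthesis in fat and liver. Its processed signals were 476, 559.5 and 365 in WT and 264, 588 and 524 in KO. The lowest and the highest of the 6 were both KO samples. Its log2 ratios were -0.26, 0.03 and 0.09, with a mean of -0.05 (SD 0.18, 95% interval -0.25 to 0.16, limma adjusted p = 0.872).

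Fabp4 encodes the fatty acid binding protein of adipocytes, which capillary endothelium also makes. Its processed signals were 2982, 3249 and 3651 in WT and 3658, 4127 and 5958 in KO. The lowest KO sample lay just above the highest WT sample, and the array 3 KO sample was well above the rest. The log2 ratios were 0.04, 0.15 and 0.58, with a mean of 0.26 (SD 0.29, 95% interval -0.01 to 0.52), which did not pass the threshold (limma unadjusted p = 0.0574, adjusted p = 0.387). Fabp4 was 1 of 2 adipocyte genes with 1 sign on all 3 arrays, as 35.8% of all genes had, and the only one of the 9 whose log2 levels did not overlap between the genotypes, as 8.54% of all genes did. With no loess, and each array centred on its tested probes, its mean was -0.02, and without array 3 it was 0.09.

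Beside Fabp4, 6 of 12 endothelial markers were tested. A summed level here is the sum, over the tested genes of a list, of their levels on a linear scale. It weighs the brightest probes most and does not show how each gene moved. For the 6 it was 1129 to 1254 in WT and 1028 to 1289 in KO. None of the 6 passed the threshold in limma, and their median ratio was -0.14, with 2 above 0 and 4 below. Cdh5, the cadherin of endothelial junctions, had a mean ratio of 0.23 (SD 0.06), Flt1, a VEGF receptor, of -0.16 (SD 0.06) and Egfl7, a secreted vessel protein, of -0.17 (SD 0.25). The other 3 tested were Pecam1 at -0.15 (SD 0.13), Cldn5 at -0.13 (SD 0.32) and Kdr at 0.03 (SD 0.21). These 3 were well above background in all 6 samples, while Tek and Esam were so in none. The part of endothelium in the Fabp4 values was not tested.

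Car3 encodes a carbonic anhydrase that is abundant both in adipocytes and in slow muscle fibres. Its processed signals were 18093, 24708 and 24211 in WT and 16967, 17109 and 17640 in KO. The KO samples lay within 1.04-fold of each other and below every WT sample, 2 of which stood well above the third. By array the log2 ratios were -0.09, -0.35 and -0.25, with a mean of -0.23 (SD 0.13, 95% interval -0.41 to -0.05). Car3 was lower in KO on 3 of 3 arrays and did not pass the threshold after adjustment (limma unadjusted p = 0.0214, adjusted p = 0.278). Its log2 levels, 10.28, 10.56 and 10.59 in WT and 10.19, 10.22 and 10.34 in KO, overlapped between the groups.

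Set beside Car3, the slow fibre markers did not share its direction as a list: 8 of the 10 tested had a mean ratio above 0 and 2 below, with a median of 0.18, and 0 passed the threshold. Myl3 was at 0.49 (SD 0.17), Mb, the oxygen store myoglobin, at 0.20 (SD 0.14) and Atp2a2, the slow calcium pump, at -1.14 (SD 0.41, limma adjusted p = 0.0809). The summed level of the 10 was 15485 to 20253 in WT and 18630 to 24683 in KO, with most weight on Myl3 and Mb, the brightest. Of 14 fast fibre markers 11 were tested, 3 above 0 and 8 below, with a median of -0.20 and 0 past the threshold. Their summed level was 14901 to 21432 in WT and 12724 to 19923 in KO. Pvalb, the calcium buffer of fast fibres and the brightest of the list, was at -0.15 (SD 1.25). Tnnt3, fast troponin T, was at 0.21 (SD 0.10). Mylpf, a fast myosin light chain, was at -0.46 (SD 0.27) and Atp2a1, the fast calcium pump, at -0.65 (SD 0.45). The part of fibre type in the Car3 values was not tested.

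**Figure D2:**
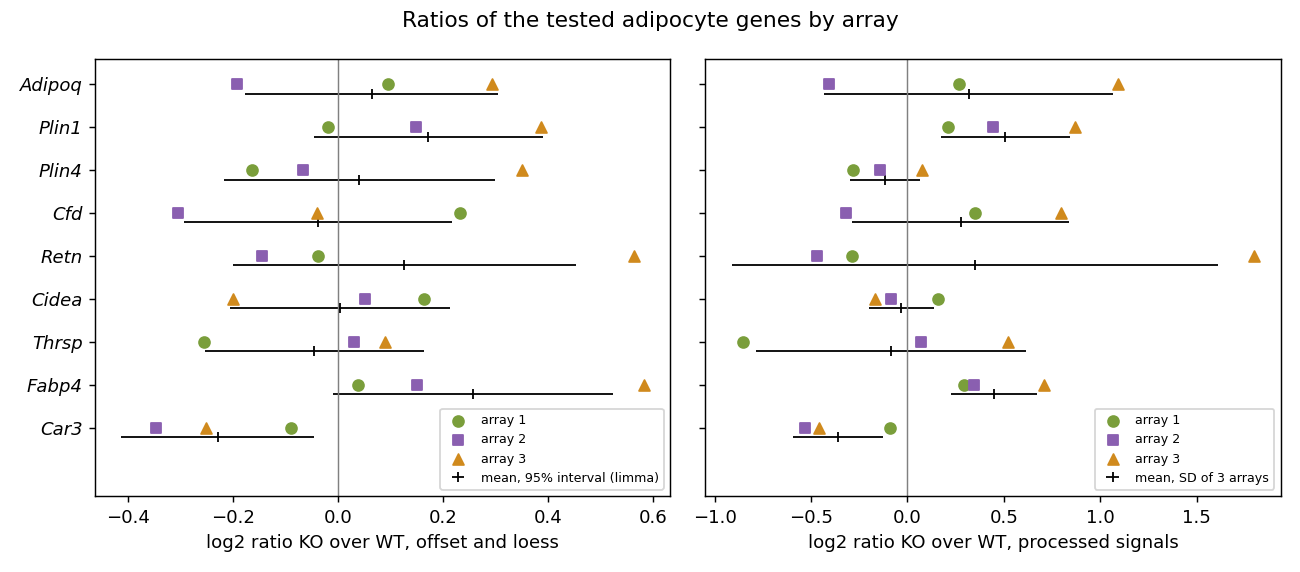
Log2 ratio of KO over WT of the 9 tested adipocyte genes on each of 3 arrays, on the offset and loess scale (left, with the mean and its 95% limma interval) and from processed signals (right, with the mean and the SD of 3 arrays). The 2 panels have different ranges. Array 3 lies furthest right for Adipoq, Plin1, Plin4, Retn, Thrsp and Fabp4 on both scales.

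The 3 arrays did not give the same picture of these genes. The median ratio of the 9 was -0.02 on array 1, -0.07 on array 2 and 0.29 on array 3. Without array 3 the median of the 9 mean ratios was -0.05. On array 1, 4 of 9 ratios were above 0, against 46.4% of all genes. On array 2 it was again 4 of 9, against 45.5%, and on array 3 it was 6 of 9, against 55.3%. From processed signals, 5, 3 and 7 of 9 were above 0 on arrays 1 to 3, against 50.5%, 46.9% and 51.4% of all genes, with medians of 0.16, -0.14 and 0.71. On array 3 the ratios of Retn and Fabp4, 0.56 and 0.58, lay above 0.41, the 95th percentile of all genes on that array.

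The ratios of adipocyte genes also varied more from array to array than most genes did on the offset scale. Their SD was above the median SD of all genes, 0.12, in 9 of 9, and the median of the 9 was 0.24. Processed signals gave a narrower picture, with 5 of 9 above the median SD of all genes of 0.24 on that scale. Those 5 were Retn at 1.26, Adipoq at 0.75, Thrsp at 0.70, Cfd at 0.56 and Plin1 at 0.33.

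How far each gene's spread lay between arrays rather than between genotypes can be read from the 6 log2 levels. Of the sum of squares of the levels, the share between arrays was 98.0% for Cfd, 96.9% for Cidea and 87.2% for Plin4. Over all genes the median was 70.5% and the upper quartile 89.6%, which Plin4 did not reach. The other tested adipocyte genes lay below the median, from 63.6% for Adipoq down to 23.8% for Thrsp. The share between genotypes was 0.06% for Cfd and 0.0018% for Cidea, against a median of 7.32%. It was highest for Car3 at 52.1%, Plin1 at 37.0% and Fabp4 at 32.8%. A share between arrays holds both the spots of an array and the samples put on it, which cannot be told apart here.

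**Figure D3:**
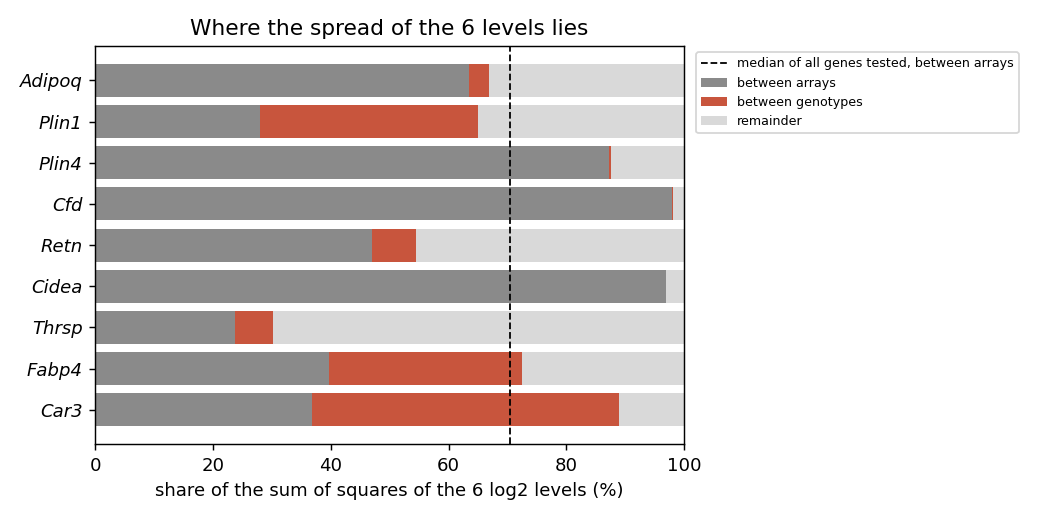
Share (%) of the sum of squares of the 6 log2 levels that lay between arrays (dark grey), between genotypes (red) and in the remainder (light grey), for each of the 9 tested adipocyte genes. The dashed line is the median share between arrays over all genes tested, 70.5%, which Cfd, Cidea and Plin4 exceed.

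Cfd and Cidea, the genes with the largest range of log2 levels, 2.00 and 1.08, ran in opposite directions over the arrays. On processed signals the range of Retn, 4.47-fold, was above that of Cidea. The log2 levels of Cfd were 8.01, 7.76 and 6.29 in WT and 8.24, 7.46 and 6.25 in KO. Those of Cidea were 7.12, 8.08 and 8.20 in WT and 7.28, 8.13 and 8.00 in KO. Cfd was thus lowest on array 3 and Cidea lowest on array 1, in both genotypes. Over the 6 samples, which share arrays in pairs, the Pearson correlation of their levels was -0.69, and it was 0.61 between Adipoq and Cfd and -0.07 between Adipoq and Cidea. The 9 genes therefore did not vary as 1 block over these samples.

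The summed levels of some lists of other cells were lowest on array 3 in both genotypes. Of 14 fibro-adipogenic progenitor markers 8 were tested, with a summed level of 1528 on array 3 and 2601 to 3016 on the others in WT, and of 1824 and 2391 to 2824 in KO. Cd34, a surface protein of progenitors and endothelium, had log2 levels of 9.67, 9.04 and 6.03 in WT and 9.78, 9.04 and 6.41 in KO, and Pi16, a marker of one progenitor state, 8.30, 7.64 and 6.03 in WT and 8.00, 7.33 and 5.95 in KO. Both thus had the order of Cfd over the arrays in each genotype. Ly6a had this order too, and Lum, a matrix proteoglycan, stayed between 8.85 and 9.37. Other markers of the list went another way. Cxcl14 was lowest on array 1 and highest on array 3, at 8.05, 8.25 and 8.28 in WT and 8.06, 8.23 and 8.25 in KO. Gsn was lowest on array 1 and highest on array 2 in both genotypes. The defining progenitor markers Pdgfra and Dpp4 were not well above background in any sample.

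The summed levels of the tendon and macrophage lists fell from array 1 to array 3 in both genotypes, though not every marker in them did. The summed level of 8 tendon markers, all tested, was 2935, 1917 and 1076 on arrays 1 to 3 in WT and 2096, 1505 and 1245 in KO. Among them Chad, a cartilage and tendon matrix protein, had log2 levels of 9.76, 8.69 and 7.61 in WT and 9.27, 8.46 and 8.07 in KO, and Fmod and Comp, also matrix proteins, had mean ratios of -0.48 (SD 0.35) and -0.34 (SD 0.37). The summed level of the 9 tested of 14 macrophage and leukocyte markers was 2120, 1489 and 972 in WT and 1711, 1166 and 980.1 in KO. Cd74, a chaperone of antigen presentation, had a mean ratio of -0.40 (SD 0.20), Csf1r, the macrophage growth factor receptor, of -0.26 (SD 0.39) and C1qa, a complement subunit, of -0.23 (SD 0.02). C1qa was highest on array 3 in both genotypes, with log2 levels of 6.85, 6.59 and 6.88 in WT and 6.61, 6.36 and 6.67 in KO, and the tendon factor gene Scx was lowest on array 2 in KO, at 8.29, 7.81 and 7.94. Ptprc, Lyz2 and Cd163 were not well above background in any sample.

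Of the nerve markers, Mbp and Ncmap, genes of myelin, had mean ratios of 0.03 (SD 0.08) and -0.08 (SD 0.30). Of 9 red blood cell markers 8 were on the array and 3 tested, all above 0, with a summed level of 829 to 1308 in WT and 1012 to 2409 in KO. They were Hba-a1, alpha globin, at 0.77 (SD 0.34, limma adjusted p = 0.0883), Hbb-b1, beta globin, at 0.15 (SD 0.33), and Alas2, the haem enzyme of red cells, at 0.21 (SD 0.13). The globin genes have near-identical copies that a probe may not separate. In none of these lists of other cell types did a gene pass the threshold in limma, and the part of other tissue in the adipocyte values was not tested.

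**Figure D4:**
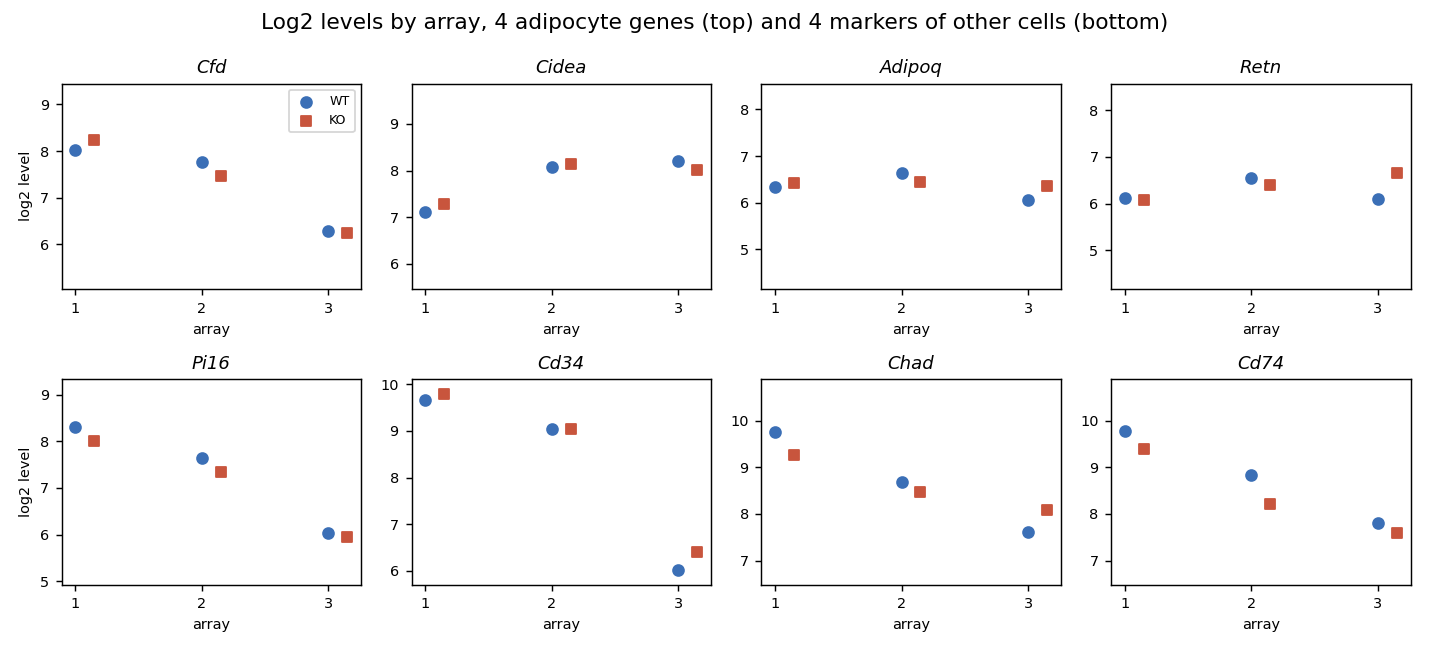
Log2 level by array (1 to 3) in WT (circles) and KO (squares) for 4 adipocyte genes (top) and for 2 progenitor markers, a tendon marker and a macrophage marker (bottom), with the same span in every panel. On array 3 Cfd, Pi16, Cd34, Chad and Cd74 are lowest in both genotypes.

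The wider programme of fat cells was measured with 6 lists holding 97 genes, of which 51 were tested. None of the 51 passed the threshold in limma. At an unadjusted p under 0.05 there were 8 of 51, 5 with a mean above 0 and 3 below, against the 13.4% of all genes tested. Their mean ratios were above 0 in 32 and below in 19, with a median of 0.03. Of the rest, 45 were too dim, 27 of them not well above background in any sample, and 1, the fatty acid transporter gene Cd36, had spots with an outlier flag. Among the 27 were Lep, the gene of leptin, Lipe, the gene of hormone-sensitive lipase, Adrb3, the beta-adrenergic receptor of adipocytes, and Rbp4, the gene of retinol binding protein.

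Of 11 transcription factors of adipocytes 6 were tested, 4 above and 2 below 0. Pparg, the nuclear receptor at the top of the programme, had log2 levels of 6.99, 7.19 and 6.62 in WT and 7.09, 7.11 and 6.99 in KO and a mean ratio of 0.13 (SD 0.23, limma adjusted p = 0.621). Its lowest sample was WT of array 3, as for Adipoq. Cebpb was at 0.0067 (SD 0.20) and Cebpd at 0.03 (SD 0.36), both early factors of adipocyte formation, and Ebf2, a factor of brown fat precursors, at -0.10 (SD 0.10).

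Of 19 genes of fatty acid and triglyceride synthesis 12 were tested, 8 above and 4 below 0, with a median of 0.06. Dgat2, the last enzyme of triglyceride synthesis, was at 0.13 (SD 0.07), Me1, which supplies NADPH, at 0.16 (SD 0.19) and Scd1, a desaturase, at 0.18 (SD 0.16). Lpin1, a phosphatidate phosphatase also active in muscle, was at -0.20 (SD 0.03, limma unadjusted p = 0.0219, adjusted p = 0.279). The list's median ratio was -0.12, 0.06 and 0.23 on arrays 1 to 3, highest on array 3.

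Of 17 genes of lipolysis and the droplet coat 8 were tested, 4 above and 4 below 0. Fitm1, a protein that promotes droplet formation in muscle, was at -0.32 (SD 0.14, limma unadjusted p = 0.0054, adjusted p = 0.166) and lower in KO on 3 of 3 arrays. Plin5, the perilipin of oxidative muscle, was at 0.04 (SD 0.28) and Mgll, a monoglyceride lipase, at -0.09 (SD 0.12). Of 15 genes of fatty acid and glucose uptake 10 were tested, 6 above and 4 below 0, and their median ratio ran the other way, at 0.23, 0.09 and -0.03 on arrays 1 to 3. Gpihbp1, which anchors lipoprotein lipase on capillaries, was at 0.27 (SD 0.10, limma adjusted p = 0.192) and Cavin1, a caveolar coat protein of fat, muscle and endothelium, at 0.26 (SD 0.18, limma adjusted p = 0.278).

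Of 20 secreted factors and receptors of fat 8 were tested, 5 above and 3 below 0. Both adiponectin receptors were among them, Adipor1 at 0.12 (SD 0.26) and Adipor2 at -0.09 (SD 0.16), as were Rarres2, the gene of chemerin, at -0.11 (SD 0.33) and Sfrp5, an antagonist of Wnt, at -0.15 (SD 0.28). Of 15 genes of brown and beige fat 7 were tested, 5 above and 2 below 0. The ones with the smallest p are also genes of oxidative muscle, Cox7a1, a subunit of cytochrome oxidase, at 0.72 (SD 0.32, limma adjusted p = 0.0883) and Cpt1b, the mitochondrial fatty acid entry enzyme, at 0.30 (SD 0.21, limma adjusted p = 0.254). Ucp1, Prdm16, Zic1 and Elovl3, which define brown fat, were not well above background in any sample, while Cidea was so in all 6.

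Every other tested gene was compared, by Pearson correlation over the 6 samples, with 1 mean. This was the mean of the centred log2 levels of the 8 tested adipocyte genes other than Car3. It does not stand for each of the 8. Cfd and Cidea, at -0.69, and Adipoq and Plin4, at -0.58, ran against each other, while Adipoq and Cfd, at 0.61, ran together. That mean was -0.00028, 0.08 and -0.19 in WT and 0.0054, 0.04 and 0.06 in KO, so its lowest value was WT of array 3. The 8 genes of highest correlation, 0.97 to 0.99, were Cfdp1, Nudt16, Prss53, Llph, Tmem135, Casp2, an unnamed Ensembl transcript and a transcript named only by its region. Their average log2 intensity was 6.15 to 6.65, except for Tmem135 at 7.93. Most were thus dim, not far above the 5.86 of the Cidec probes, which were not detected. Among the adipocyte genes in the mean, Retn at 6.32, Adipoq at 6.36, Thrsp at 6.39 and Plin1 at 6.52 were as dim. The others ran from 7.29 for Cfd to 10.8 for Plin4. With 6 samples, 76 of 7415 other genes reached 0.9, and on the processed scale the same 8 ran from 0.08 to 0.97.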

How the data were processed

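Total RNA of 3 WT and 3 KO muscles was hybridised to 3 Agilent arrays with 2 colours. Per the file headers, the authors' scanner files hold the intensity of each spot in both channels, its local background, flags and a processed signal made with Feature Extraction 12.0.3.1, while the submitters' processing notes name version 11.5. The deposited series matrix holds log10 ratios per spot, with column medians of 0, 0 and 0. On the 12 spots of the adipocyte genes it differed from the scanner's log10 ratio (KO over WT) by at most 4.1e-10 on the first 2 arrays and by at most 0.000485 on array 3, so its direction follows the dyes, and no value below was taken from it. Median spot intensities were corrected with normexp (offset 50) and normalised by loess within each array with limma 3.58.1 in R 4.3.3, with control and outlier-flagged spots at weight 0. Spots of the same probe were averaged. Testing needed a signal well above background on each of the 3 arrays in either channel, met by 8391 of 55681 probes. A probe with several spots counted as such when at least 50% of its unflagged spots were. The brightest probe stood for a gene. Names came from RefSeq's GRCm38.p6 table, which matched 28664 of 29472 probes with a RefSeq accession. Levels of single channels were normalised between arrays by the average intensity (Aquantile). The mean ratio was tested against 0 with eBayes, the array being the pair of 1 KO and 1 WT sample, with Benjamini-Hochberg adjustment over 7424 genes or transcripts. SD values are between arrays.

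The adipocyte genes and all gene lists were chosen with earlier results of these data known. The rule for named genes took every adipocyte gene with every probe and the targeted gene. Of each other list it took any gene past the threshold, the 2 of highest average intensity and the 2 of smallest p. It also took the 8 genes most like the mean of the tested adipocyte genes other than Car3. Other genes, named for their state of detection or as the array 3 pattern shows them, were chosen after their values were seen. The fit was tested on simulated arrays with planted ratios far larger than the mean ratio of any adipocyte gene. That test does not show whether ratios of their size would be found. Alternatives changed the background correction, offset, loess, source of the ratio, filters, probe rule, moderation, pairing and arrays used. The level of 1 marker of another cell type and the sum of its list are not reported here.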

Additional observations from a re-analysis of the deposited data

How the results depend on the processing

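Of 108 recomputed ratios of the 9 tested adipocyte genes, under 12 alternatives, 16 changed sign and 2 passed the threshold. Both calls came with arrays centred on the tested probes without loess, where Plin4 was at -0.56 (limma adjusted p = 0.0157) and Car3 at -0.78 (limma adjusted p = 0.0126), so that 2 adipocyte genes were called among 2658 genes in all. That setting leaves in the trend of ratio with brightness, and it also turned Cidea to -0.204, Thrsp to 0.104 and Fabp4 to -0.0158. Plin4 turned to -0.0425 with an offset of 16 and to -0.0868 with no background subtraction. With the scanner's processed signals Plin4 was at -0.12, Cfd at 0.28 and Cidea at -0.0325, and the median of the 9 moved to 0.28. The cause was not tested. Plin1 and Car3 kept their sign under all 12 alternatives, from 0.06 to 0.51 and from -0.78 to -0.17.

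With 1 array left out, Adipoq ran from -0.0500 to 0.193, Plin4 from -0.12 to 0.14, Retn from -0.0925 to 0.26, Cfd from -0.17 to 0.10, Cidea from -0.0756 to 0.11 and Thrsp from -0.11 to 0.0593. The negative ends of Adipoq, Plin4 and Retn came without array 3, and the highest of Cfd without array 2. The median of the 9 ran from -0.05 without array 3 to 0.10 without array 2.

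Over all genes 3 were called in limma, 25 with an offset of 16, 5 with no background subtraction, 85 with trended robust moderation, 1 with flagged spots kept and 1 with the mean over a gene's probes. With the processed signals, with no filter on dim probes and with 6 channels as separate samples, with no block for the pairing, limma called 0, and 805, 2468 and 258 had an unadjusted p under 0.05. With 1 array left out, 9 to 158 genes were called, the most without array 3, and 0 adipocyte genes. Signal over background limits Cidec and the second Retn probe, and a smaller ratio follows from the offset for dim probes such as Adipoq, Retn and Thrsp. The range of the 6 log2 levels moved by less than the SD of the levels for all 9 genes with no normalisation between arrays, and by more for 8 of 9, all but Plin4, with processed signals scaled to their 75th percentile, where Cfd spanned 3.16, Retn 2.00 and Cidea 1.78.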
